A study of Mus musculus with 16 samples.

Results

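Loss of estrogen receptor α (ERα, gene Esr1) and loss of ERβ (gene Esr2) in the mouse ovary were tested for departure from additivity, over all 16 arrays of the series and 24430 measured features. The quantity examined was the interaction, the effect of losing ERβ where ERα was also absent minus the same effect where an ERα allele was present, or (Ex3abERKO minus Ex3aERKO) minus (Ex3bERKO minus control) on a log2 scale. An interaction of 0 means that the double knockout sat where the summed effects of the single knockouts would place it. A positive value means that it sat above that sum and a negative value below it. Arrays were placed in groups by their titles, with 4 arrays in each of 4 groups.

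Whole ovaries of 1-year-old mice gave the total RNA, which was labelled with Cy3 and hybridised to single-colour Agilent arrays. The control ovaries carried only a single allele of each receptor, so every comparison with control starts from reduced gene dosage. Ex3aERKO ovaries lacked ERα, Ex3bERKO ovaries lacked ERβ and Ex3abERKO ovaries lacked both receptors; "without ERα" and "without ERβ" below mean these single knockouts. The strain and the part of each gene that was removed are not given in the sources used here. Nothing states that the 4 arrays of a group represent different mice, and the p-values therefore describe the spread among these arrays alone, some of which may be technical. The series concerns granulosa cells that take on features of another cell type in aged ovaries.

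Estrogen receptors are transcription factors that bind DNA as dimers at estrogen response elements once they hold estradiol, and ERα and ERβ can pair with themselves or with each other. In the ovary ERβ is the main form in granulosa cells, the supporting cells of the follicle, while ERα is prominent in the theca and stroma and acts in the pituitary to restrain luteinizing hormone. Ovaries that lack both receptors are known to form cord-like structures with cells that resemble Sertoli cells, the supporting cells of the testis.

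Levels are given as the log2 of the background-corrected signal relative to the array's own 75th percentile, called the level below, with arrays in the order of replicates 1 to 4. The brightest kept probe stands for a gene, and other probes of the same gene are mentioned for some genes where they differ, not for all. A level serves to compare groups for 1 probe and not to compare genes. Array depth is not defined as it is for sequencing, and the precision is limited by the number of arrays. Between 80.4% and 87.6% of spots on an array were well above background, and arrays of a group correlated at 0.964 to 0.987. A feature was called when its interaction had an adjusted p under 0.05 in limma over all features. A value after ± is the standard error from that fit, whose spread is pooled over the 4 groups of 4 arrays, and some interactions are given without it. The arrays Ex3aERKO 2, Ex3abERKO 2 and control 4 stood apart in genes of liver, oviduct and red blood cells, so counts are also given without them. The liver genes, for example, summed to 204 scaled signal units on Ex3aERKO 2 and to at most 38.7 on any array of another group. Array weights, which rate how closely an array follows its group over all features, were 1.24, 1.65 and 1.15 for these 3 arrays. They were lowest for Ex3abERKO 3 (0.194) and Ex3aERKO 4 (0.447), so by that measure other arrays deviated more. Arrays of 1 slide deviated from their group means together, with a median correlation of 0.28 over 22 pairs (18 above 0.1) against -0.07 for pairs from different slides. Slide 2 held Ex3abERKO 1 and 2 and no Ex3bERKO array. Slide 3 held Ex3bERKO 1 and 4 and no Ex3abERKO array, so slide and these groups are partly confounded. The 4 Ex3bERKO arrays also differed among themselves in several genes described below.

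The interaction was called for 869 features, 3.56% of those tested, of which 445 (1.82%) lay above additivity and 424 (1.74%) below it. The median interaction of all features was 0.00. Of the 869, 805 had an interaction of at least 1 in size, and 733 carried a gene symbol. All 869 kept their sign when slide was added as a block to the fit, which called 628 features in all and 534 of the 869. On slides 1 and 4, the slides that held an array of every group, 866 of the 869 had the same sign on each slide, as a description of the same arrays. Without the 3 arrays that stood apart, 252 features were called, 235 of them among the 869, and the sign again held for all 869. These fits reuse the arrays that picked the 869, so a kept sign is not separate support. The count fell to 561, 551, 506, 552 or 530 on leaving out control 1, control 3, control 4, Ex3aERKO 1 or Ex3bERKO 3, and it was 1328 without Ex3abERKO 3.

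The called features were sorted by where each knockout's mean lay against control, counting a difference of at least 1 log2 unit as up or down. This sorting describes means and is not a test. One class held 260 features that moved in at least 1 single knockout and lay near control in the double knockout, 140 as peaks and 120 as dips. A further 161 features moved only in the double knockout, 83 upward and 78 downward. In 116 features all 3 knockouts moved the same way and the double moved less than the sum, which is here called saturation (59 down and 57 up). Another 269 features lay within 1 log2 unit of control in every knockout. The other 63 included 36 reversals, in which the double knockout lay on the other side of control from a single knockout, and 24 features in which 1 single knockout moved with the double. The count near control was 48, and that of reversals 172, when a difference of 0.5 counted as moved, and they were 487 and 6 at 1.5. With array weights 706 features lay near control throughout. None of the 869 had all 3 knockouts displaced to 1 side with the double beyond the sum. Without the 3 arrays the peak and dip, double-only and saturation classes held 86, 64 and 40 features.

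The pairwise comparisons behind these shapes differed widely in size. Against control, 8.02% of features were called in Ex3aERKO (3.83% higher, 4.19% lower), 1.02% in Ex3bERKO (0.389% higher, 0.63% lower) and 22.3% in Ex3abERKO (10.6% higher, 11.7% lower). The double knockout differed from Ex3aERKO in 7.73% (4.4% higher, 3.33% lower) and from Ex3bERKO in 16.6% (8.22% higher, 8.39% lower). These comparisons share groups with one another and with the interaction.

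**Figure D1:**
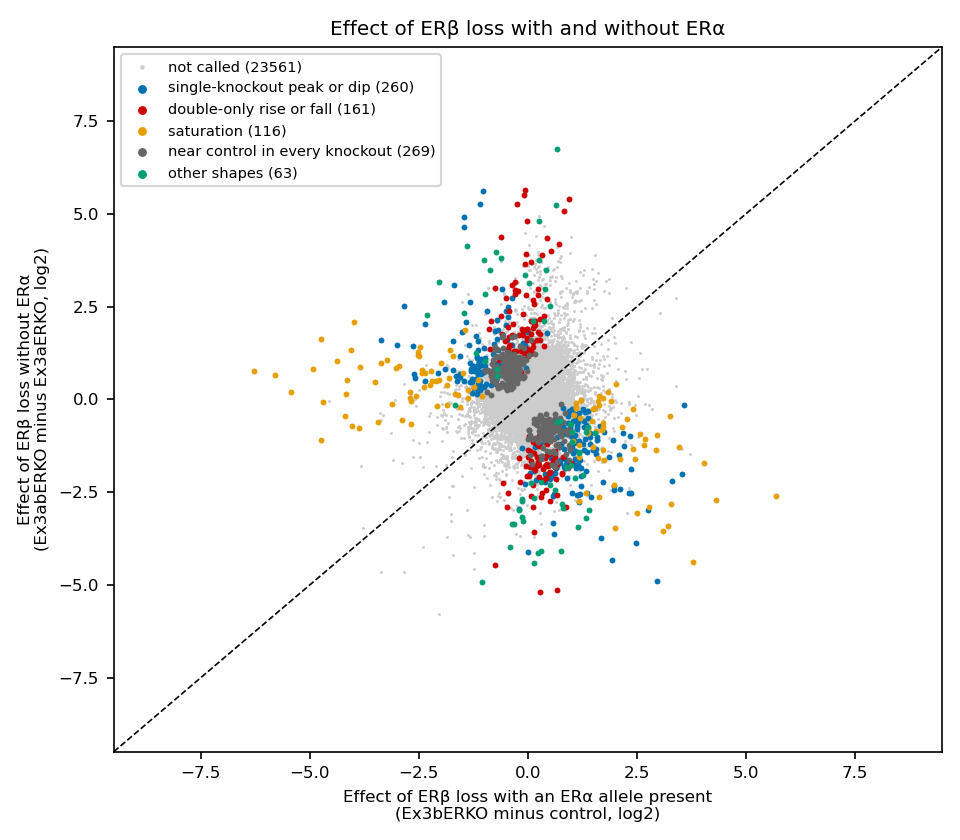
Effect of ERβ loss on each feature with an ERα allele present (horizontal axis, log2 difference) against its effect without ERα (vertical axis, log2 difference), with 1 point per feature and colours for the shape of the 869 called features. Points on the dashed diagonal would be additive; the called features lie off it, saturated features mostly along the horizontal direction and double-only features along the vertical.

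**Figure D2:**
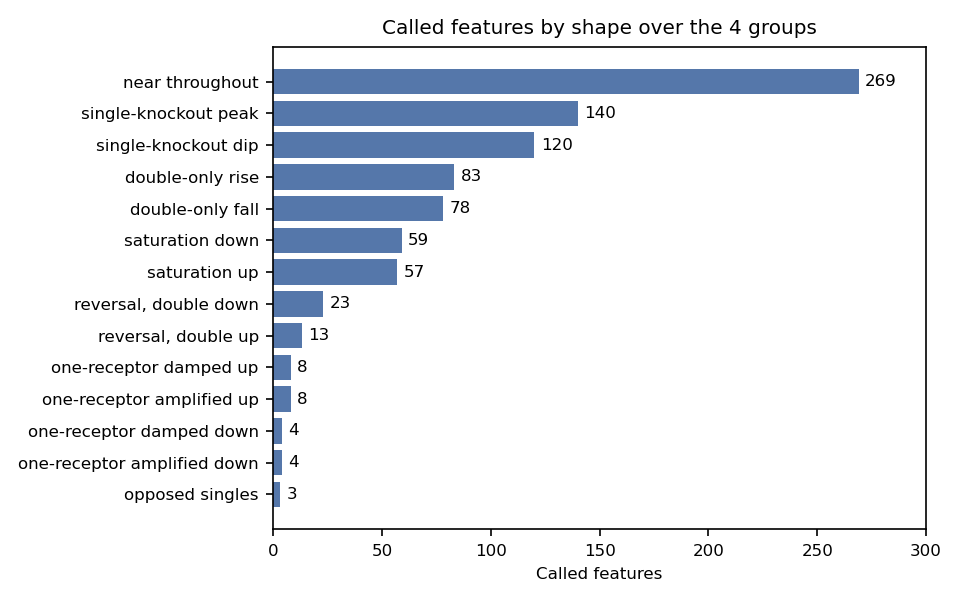
Number of called features (horizontal axis) in each shape over the 4 groups (vertical axis). Near throughout (269), single-knockout peak (140) and single-knockout dip (120) hold the most features.

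Single-knockout peaks included the androgen-making enzyme Cyp17a1, the X-linked homeobox gene Rhox5, the cystatin relative Cstdc2, the secreted protein gene Mia and 6 of 12 measured kallikreins. Of the 140 peaks, 64 were up in both single knockouts, 62 only in Ex3aERKO and 14 only in Ex3bERKO. Up and down here again mean 1 log2 unit. In the pairwise comparisons with control, 112 of the 140 were called in Ex3aERKO and 28 in Ex3bERKO. Cyp17a1 makes the androgen precursors that theca cells supply to granulosa cells. Its levels were 0.55, 2.16, 0.07 and 0.19 in control, 3.54, 3.58, 3.81 and 3.08 without ERα, 3.63, 4.19, 3.06 and 3.11 without ERβ, and 0.64, 0.58, 0.57 and 0.28 in Ex3abERKO. Every array of either single knockout lay above every control and every double-knockout array, while control and double knockout overlapped. Cyp17a1 rose 6.78-fold in Ex3aERKO (adjusted p = 0.0007) and 6.75-fold in Ex3bERKO (adjusted p = 0.003), and its double-knockout mean was 0.22 ± 0.38 log2 units below control (adjusted p = 0.75). The interaction was -5.74 ± 0.54 (adjusted p = 0.00021), with -6.65 on slide 1 and -5.78 on slide 4, and it was called on leaving out any single array. In bulk ovary, fewer cells of a type and less RNA per cell cannot be told apart, which holds for every gene described here.

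Rhox5, which Sertoli and granulosa cells express under androgen control, peaked mainly in 1 single knockout. Its levels were -2.21, -1.72, -2.37 and -1.87 in control and 1.23, 0.27, 0.43 and 0.69 without ERα. They were -1.18, -1.68, -1.42 and -1.48 without ERβ and -2.78, -3.14, -2.72 and -3.21 in Ex3abERKO. No group overlapped another. Rhox5 rose by 2.70 ± 0.22 in Ex3aERKO (adjusted p = 5.2e-05), differed by 0.60 ± 0.22 in Ex3bERKO (adjusted p = 0.3) and fell by 0.92 in Ex3abERKO (adjusted p = 0.0077). Its interaction was -4.22 ± 0.31 (adjusted p = 2.7e-05). Rhox5 was singled out after its values were seen.

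Cstdc2, a member of the cystatin cluster of protease inhibitors on chromosome 2, had the largest interaction of the named peaks, -7.87 ± 1.23 (adjusted p = 0.0036). Its Ex3aERKO arrays stood at 3.54, 2.42, 1.5 and 3.33, against -2.39, -1.91, -1.53 and -3.43 in control and -2.25, -2.12, -1.52 and -2.95 in the double knockout. The Ex3bERKO arrays split, with 2.79 and 2.16 on replicates 2 and 3 and -0.06 and -2.29 on replicates 1 and 4. Mia, a secreted protein first described in melanoma and cartilage, stood at 1.61, 1.87, 1.91 and 3.69 without ERα and 0.72, 3.18, 1.86 and 0.72 without ERβ. Its control arrays read -0.46, -1.5, -0.88 and -0.63 and its double-knockout arrays -2.61, -0.90, -0.61 and -2.29, for an interaction of -6.36 ± 0.86 (adjusted p = 0.0016). Both single knockouts lay above control for Mia without overlap. Ibsp, a bone matrix protein, also peaked at -6.27 ± 1.19 (adjusted p = 0.011). It was well above background on all 4 Ex3aERKO arrays, 3 Ex3bERKO arrays, 1 control array and no double-knockout array, so the size of that interaction depends on the floor, and with another background correction (normexp) it was -0.76 and not called. Hpgd, which breaks down prostaglandins, peaked with an interaction of -2.34 ± 0.40 (adjusted p = 0.0063).

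The glandular kallikreins, secreted serine proteases of the Klk1 cluster that androgens drive in salivary gland, formed the list with the highest share of calls. Of 12 measured members 8 were called, all below additivity, against 3.56% of all features, and the median interaction of the list was -4.10 against 0.00. Called members were Klk1b3, Klk1b5, Klk1b8, Klk1b16, Klk1b21 and Klk1b26 as peaks and Klk1b24 and Klk1b27 as saturation. Klk1b9 was an exception, with an interaction of -0.12 ± 0.66, and Klk1, Klk1b4 and Klk1b11 were not called at -1.78, -2.56 and -1.52. In the pairwise comparisons with control, 5 of the 12 members were called in Ex3aERKO, 1 in Ex3abERKO and 0 in Ex3bERKO, so the shapes rest on means. Klk1b26 stood at -1.37, -2.85, -3.17 and -3.92 in control, 0.49, 0.39, 0.31 and -0.64 without ERα, 0.22, 1.25, 2.72 and -2.27 without ERβ, and -3.62, -2.20, -0.77 and -1.62 in Ex3abERKO. All Ex3aERKO arrays lay above control and above the double knockout, and the Ex3bERKO arrays overlapped both. Its interaction was -5.50 ± 1.23 (adjusted p = 0.024), and the call ended on leaving out control 3, control 4, Ex3aERKO 1 or Ex3abERKO 1. Klk1b24 reached -8.29 ± 1.93 (adjusted p = 0.03), Klk1b21 -5.57 and Klk1b27 -5.74. On leaving out 1 array, the Klk1b3 call ended without control 3 or 4, Ex3aERKO 1, 2 or 3, Ex3bERKO 1 or 3 or Ex3abERKO 1 or 2, the Klk1b5 call held only without control 2, Ex3bERKO 4 or Ex3abERKO 3, the Klk1b8 call ended without control 1, 3 or 4, Ex3aERKO 1 or 2, Ex3bERKO 2 or Ex3abERKO 1 or 2, the Klk1b24 call ended without control 3 or 4, Ex3aERKO 1 or 3, Ex3bERKO 2 or 3 or Ex3abERKO 1 or 2, the Klk1b21 call ended without control 3 or 4 or Ex3abERKO 1 and the Klk1b27 call held only without Ex3bERKO 1 or 4. The members are near-identical in sequence, so probes may read more than 1 member, and their calls are not separate evidence. No kallikrein was called without the 3 arrays that stood apart, where the adjusted p of the 8 ranged from 0.1 to 0.24. With slide as a block the adjusted p missed the threshold for Klk1b3 (0.052), Klk1b5 (0.051) and Klk1b8 (0.063). Under normexp, calls ended for Klk1b3 (-3.73, 0.062), Klk1b5 (-3.60, 0.081), Klk1b8 (-2.24, 0.09), Klk1b16 (-0.48, 0.77), Klk1b21 (-3.04, 0.26), Klk1b26 (-4.75, 0.07), Klk1b24 (-6.29, 0.063) and Klk1b27 (-3.61, 0.31), given as interaction and adjusted p.

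Because the kallikreins moved together, the 250 bases before the start site of 4 of them are shown, from RefSeq (GRCm38.p6), with matches to the estrogen receptor half-site AGGTCA or its reverse complement TGACCT in capitals on either strand. A match describes letters only. Klk1b21 lies at chr7:44102042-44102291 (plus strand), Klk1b24 at chr7:44187986-44188235, Klk1b26 at chr7:44012428-44012677 and Klk1b27 at chr7:44052040-44052289, all on the plus strand. In Klk1b21 the first run of capitals also matches, on the other strand, the longer motif CAAGGTCA bound by Nr5a1, which contains the half-site.
Klk1b21: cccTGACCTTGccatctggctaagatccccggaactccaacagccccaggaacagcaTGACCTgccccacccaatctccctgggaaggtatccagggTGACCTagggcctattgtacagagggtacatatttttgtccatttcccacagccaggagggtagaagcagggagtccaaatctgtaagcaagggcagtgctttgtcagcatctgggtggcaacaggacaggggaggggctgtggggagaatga
Klk1b24: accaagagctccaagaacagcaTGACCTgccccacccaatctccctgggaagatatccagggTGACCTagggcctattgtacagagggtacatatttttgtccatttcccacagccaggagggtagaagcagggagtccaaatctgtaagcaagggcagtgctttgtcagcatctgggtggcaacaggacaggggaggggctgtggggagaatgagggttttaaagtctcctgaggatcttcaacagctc
Klk1b26: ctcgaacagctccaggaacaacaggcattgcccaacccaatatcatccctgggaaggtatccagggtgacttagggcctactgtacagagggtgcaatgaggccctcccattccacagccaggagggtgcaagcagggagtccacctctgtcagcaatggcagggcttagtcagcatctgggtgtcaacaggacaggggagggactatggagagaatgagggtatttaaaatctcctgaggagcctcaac
Klk1b27: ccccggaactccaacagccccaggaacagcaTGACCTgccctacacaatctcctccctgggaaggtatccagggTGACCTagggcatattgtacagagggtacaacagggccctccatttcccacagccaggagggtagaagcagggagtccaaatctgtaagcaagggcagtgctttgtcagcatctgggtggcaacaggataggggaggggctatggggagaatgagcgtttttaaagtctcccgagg
A half-site was present in the 300-base promoter window (250 bases before to 50 after the start) of 9 of the 12 measured kallikreins, and in 6 of the 8 that were called. It was present in 16.3% of all 32851 mouse promoter windows of this length. The kallikrein promoters resemble one another, so they are not independent. Klk1b26, shown above, had no match and was called. Over all called genes with a promoter entry (577 genes, 767 windows) 14.0% of windows held the half-site, the same share as among 18056 windows of tested genes. The full palindrome GGTCANNNTGACC, searched on both strands, was in 0.0388% of tested windows and in no window of a called gene. CAAGGTCA was in 1.04% of called and 1.21% of tested windows.

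**Figure D3:**
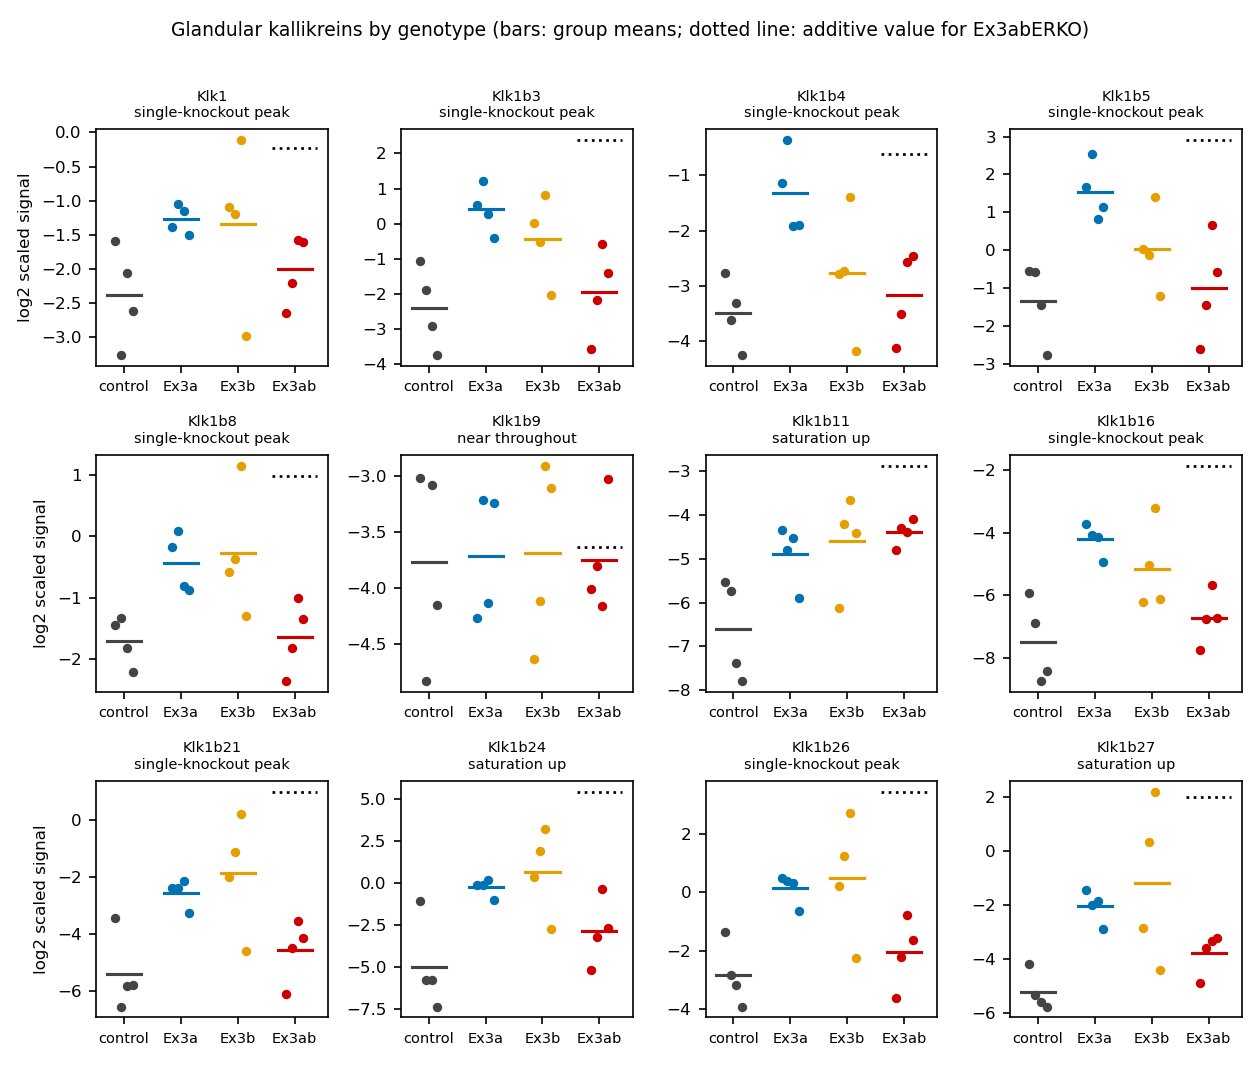
Levels (vertical axis, log2 scaled signal) of the 12 measured glandular kallikreins in each group (horizontal axis; Ex3a, Ex3b and Ex3ab stand for the knockouts). Points are arrays, bars are group means and the dotted line is the additive value for the double knockout, which lies above the Ex3abERKO mean in all 12 panels.

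Another cluster of related genes with called peaks was the Serpina3 cluster of serine protease inhibitors on chromosome 12, picked after its values were seen. Of 8 measured members 5 were called, all as peaks, against 3.56% of all features, namely Serpina3a (-5.41), Serpina3k (-4.84), Serpina3c (-4.25), Serpina3m (-3.58) and Serpina3b (-2.64). All 8 interactions were below 0, where 50.1% of all features lay above 0. Serpina3a stood at -3.28, -1.29, -1.73 and -1.98 in control and 1.63, 1.34, 1.66 and 1.34 without ERα. It stood at -1.15, -0.48, 0.39 and -0.31 without ERβ and -3.27, -1.74, -1.94 and -1.98 in the double knockout, which overlapped only control. Serpina3k is abundant in liver and was highest on Ex3aERKO 2 (1.5), the array with the most signal from liver genes, and without the 3 arrays its interaction was -3.77 (adjusted p = 0.004). These paralogs are also close in sequence and may cross-hybridise, and the Serpina3b call ended without control 3 or 4, Ex3aERKO 1, 2 or 4, Ex3bERKO 1, 2 or 4 or Ex3abERKO 1 or 4.

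Of 6 measured fatty acid desaturases, picked likewise, 3 were called, against 3.56% of all features, and each of the 3 took a different shape. Fads2, the delta-6 desaturase, peaked in both single knockouts at 2.48, 2.71, 2.14 and 2.33 without ERα and 2.12, 3.44, 2.18 and 1.61 without ERβ, against 1.06, 1.3, 1.02 and 1.13 in control. All 4 double-knockout arrays (0.21, 0.36, 0.52 and 0.32) lay below control, and the interaction was -3.27 ± 0.40 (adjusted p = 0.0011). Fads3 was a dip at 1.99 ± 0.34 (adjusted p = 0.0057). Fads1, at -1.92 (adjusted p = 0.016), lay within 1 log2 unit of control in every knockout. Fads6, Scd1 and Scd2, with interactions of 0.42, 0.08 and 0.02, were not called.

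Single-knockout dips numbered 120, of which 50 were down in both single knockouts, 54 only in Ex3aERKO and 16 only in Ex3bERKO. Pairwise comparisons with control called 97 of the 120 in Ex3aERKO and 33 in Ex3bERKO. The uncharacterised gene 4930486L24Rik gave the clearest case. Its levels were 0.77, 0.31, 1.74 and 1.18 in control, -2.05, -1.90, -1.84 and -2.03 without ERα, -1.42, -1.48, -2.24 and -2.20 without ERβ, and 0.51, -0.33, 1.60 and 0.49 in Ex3abERKO. Both single knockouts lay wholly below control and below the double knockout, which overlapped control. It fell 7.74-fold in Ex3aERKO and 7.15-fold in Ex3bERKO, and its interaction was 5.36 ± 0.52 (adjusted p = 0.00021).

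Pdgfrb, a growth factor receptor of pericytes and stroma, stood at 2.81, 2.50, 2.67 and 2.85 in control, 1.58, 1.66, 1.77 and 1.24 without ERα, 1.85, 2.26, 2.07 and 2.28 without ERβ and 2.40, 2.59, 2.35 and 2.40 in the double knockout (interaction 1.46 ± 0.21, adjusted p = 0.0024). Dkk3, of a family of Wnt inhibitors, had an interaction of 2.61 ± 0.46, and Parm1, from the luteal list, one of 2.17 ± 0.55. The Notch ligand Dll4 (0.89 ± 0.23, adjusted p = 0.045) and the interferon-induced gene Oasl2 (1.74 ± 0.44, adjusted p = 0.045) were dips close to the threshold. The fat-cell hormone Adipoq dipped in Ex3aERKO, with -5.93, -3.30, -2.90 and -6.03 against 1.19, -0.03, -0.26 and -2.37 in control. It stood at 0.37, -1.43, -4.19 and -2.09 without ERβ and 1.10, 0.18, -1.03 and 1.26 in Ex3abERKO, for an interaction of 6.39 ± 1.42 (adjusted p = 0.023). Cfd, a complement factor made by fat cells, and the amino acid transporter Slc7a10 had interactions of 6.64 ± 1.52 (adjusted p = 0.027) and 6.10 ± 1.22 (adjusted p = 0.015). Of 12 measured adipose genes 2 were called, against 3.56% of all features, and 11 had an interaction above 0, against 50.1%. Their summed signal was between 25.5 and 52.8 in control, between 32.1 and 60.8 without ERα, between 22.5 and 56.4 without ERβ and between 83.0 and 138 in Ex3abERKO, and the part of attached fat in these values was not tested. On leaving out 1 array, the Adipoq call ended without control 1, Ex3aERKO 1 or Ex3abERKO 1, the Cfd call ended without control 1 or 3 or Ex3abERKO 1 or 4, the Dll4 call held only without control 2, Ex3aERKO 4 or Ex3abERKO 3, the Oasl2 call held only without Ex3aERKO 1 or 2 or Ex3abERKO 4 and the Parm1 call held only without control 2, Ex3aERKO 4, Ex3bERKO 4 or Ex3abERKO 3 or 4. For these genes, with slide as a block the adjusted p missed the threshold for Parm1 (0.15), Dll4 (0.095), Oasl2 (0.076), Adipoq (0.057) and Cfd (0.082). Normexp ended the calls of Parm1 (2.09, 0.076), Dll4 (1.05, 0.17), Oasl2 (1.68, 0.09) and Slc7a10 (2.94, 0.067), with the interaction and adjusted p in parentheses. Dkk3, Parm1, Dll4, Oasl2, Cfd and Slc7a10 lost the call without the 3 arrays that stood apart (adjusted p from 0.052 to 0.2).

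Saturation downward (59 features) took in genes whose mean lay at least 1 log2 unit below control in every knockout, among them the lipid-droplet proteins Plin4 and Plin5, the peptidase Mmel1, the transcription factor Runx2 and the steroid enzyme Hsd17b7. In 38 of the 59 the double knockout lay closer to control than either single knockout, in 14 it lay between them and in 7 it lay further down than both. The median loss in the double was 41.5% of the summed single losses. Plin4, which coats lipid droplets, stood at 5.61, 4.34, 5.31 and 4.97 in control and 1.44, 1.60, 0.57 and 1.90 without ERα. It stood at -0.18, 0.51, -1.37 and -0.43 without ERβ and 1.5, 1.28, 1.74 and 1.79 in Ex3abERKO. The double knockout overlapped Ex3aERKO and lay wholly above Ex3bERKO. Plin4 fell 12.8-fold in Ex3aERKO, 43.0-fold in Ex3bERKO and 11.2-fold in Ex3abERKO, and it was 3.85-fold higher in the double knockout than in Ex3bERKO (adjusted p = 0.0036). Its interaction was 5.62 ± 0.53 (adjusted p = 0.00021). In the same group, with slide as a block the adjusted p missed the threshold for Plin5 (0.051). Leaving out the 3 arrays that stood apart ended the call of Plin5 and Hsd17b7 (adjusted p from 0.066 to 0.1).

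Mmel1, a membrane metallopeptidase of the neprilysin family, fell 24.1-fold, 55.8-fold and 15.2-fold in Ex3aERKO, Ex3bERKO and Ex3abERKO. Its control arrays read 3.84, -0.29, 3.34 and 4.23, so control 2 stood well below the others, while the knockouts lay between -3.27 and -0.77. The interaction was 6.46 ± 1.02 (adjusted p = 0.0037) and 7.48 at most on leaving out 1 array. Control 2 was low in the same way for Plin5, at 0.83 against 3.76, 3.54 and 3.59, and for Runx2, at 1.33 against 2.78, 2.83 and 2.77. Both genes are linked to the luteal phase, Plin5 through lipid droplets and Runx2 through the ovulatory response. Runx2 stood at -0.31, -0.46, -1.06 and -2.38 without ERα, -1.47, -0.90, -1.91 and -2.22 without ERβ and 0.75, -0.32, 0.84 and -0.19 in the double knockout, for an interaction of 5.37 ± 0.68 (adjusted p = 0.0013). Plin5 had 3.64 ± 0.78 (adjusted p = 0.02), and its Ex3aERKO arrays overlapped control. Leaving out control 2 left 884 features called.

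Hsd17b7, an enzyme of cholesterol and estradiol synthesis in the corpus luteum, showed saturation as a common floor. It fell by 3.30, 3.88 and 4.07 in Ex3aERKO, Ex3bERKO and Ex3abERKO, and its knockouts lay between -1.09 and 1.17 against 2.72 to 4.68 in control (interaction 3.1 ± 0.64, adjusted p = 0.016). Wnt10b, a Wnt ligand, fell by 4.08, 4.93 and 3.26 (interaction 5.76 ± 0.86, adjusted p = 0.0026). Cemip, which degrades hyaluronan, had an interaction of 6.08 ± 0.89 (adjusted p = 0.0025). Its 3 other probes ranged from 0.64 to 5.96, with 1 called. Rgcc, a cell-cycle regulator, had one of 3.31 ± 0.47 (adjusted p = 0.0022). In the luteal list 3 of 14 measured genes were called above additivity (Rgcc, Hsd17b7 and Parm1) and 1 below (Inhba), against 1.82% and 1.74% of all features. The list's summed signal was between 488 and 853 in control, between 264 and 379 without ERα, between 221 and 469 without ERβ and between 102 and 232 in Ex3abERKO. Here too, without the 3 arrays that stood apart, Inhba lost the call (adjusted p = 0.066).

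Saturation upward (57 features) took in genes near or below the 75th percentile in control that lay at least 1 log2 unit higher in every knockout, chiefly Ex3aERKO, whose rise exceeded that of Ex3bERKO in 50 of the 57. The median rise of the double was 37.2% of the summed single rises. Of the 57, pairwise comparisons with control called 55 in Ex3aERKO, 31 in Ex3bERKO and 42 in Ex3abERKO. Hsd17b3, the enzyme that makes testosterone in the testis, stood at -4.34, -4.51, -4.43 and -4.40 in control and 1.17, 2.37, 1.97 and 1.82 without ERα. It stood at -2.31, 1.25, 1.17 and -2.63 without ERβ and -4.28, -2.01, -1.70 and -2.19 in Ex3abERKO. All knockout arrays lay above all control arrays, and the double knockout lay wholly below Ex3aERKO. Hsd17b3 rose 76.3-fold in Ex3aERKO (adjusted p = 0.00045) and 13.9-fold in Ex3bERKO (adjusted p = 0.037), and was 3.67-fold above control in Ex3abERKO (adjusted p = 0.11). Its interaction was -8.17 ± 1.14 (adjusted p = 0.0019), with -9.67 on slide 1 and -9.61 on slide 4. Those slides held Ex3bERKO 2 and 3 and not the lower Ex3bERKO 1 and 4, which left the within-slide values larger in size.

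Lcn2, a secreted iron-siderophore carrier, rose 356-fold in Ex3aERKO and 54.4-fold in Ex3abERKO, from control levels of -5.26, -5.21, -5.06 and -4.16. Its Ex3bERKO arrays read -3.01, 1.73, 2.42 and -3.57 and its double-knockout arrays -0.45, 1.89, 0.66 and 1.26, below the Ex3aERKO arrays at 3.85, 3.66, 3.89 and 2.80 (interaction -7.03 ± 1.53, adjusted p = 0.022). Insl3, a peptide hormone of theca and Leydig cells, stood between -0.51 and -0.02 in control, between 6.49 and 6.74 in Ex3aERKO and between 1.89 and 4.49 in Ex3abERKO, and at 0.42, 5.65, 6.23 and -0.41 without ERβ. Its interaction of -6.63 ± 1.67 (adjusted p = 0.042) was called on leaving out Ex3bERKO 1, Ex3bERKO 4 or Ex3abERKO 2 and lost on leaving out any of the other 13 arrays. Jak3, whose gene lies beside Insl3 (promoter windows chr8:71676133-71676432 and chr8:71689002-71689301, both on the plus strand, GRCm38.p6), had nearly the same interaction, -6.66 ± 1.67, and whether its probe reads transcripts of its neighbour was not tested. Another Jak3 probe had an interaction of -0.31 and was not called, and the Jak3 call held only without Ex3bERKO 1 or 4 or Ex3abERKO 2. Ptgds, a prostaglandin D synthase, gave -5.57 ± 1.40 (adjusted p = 0.041) with Ex3bERKO at -0.70, 3.57, 4.80 and -0.72. Its call was kept only on leaving out Ex3bERKO 1, Ex3bERKO 4 or Ex3abERKO 4. Eppin, a protease inhibitor of testis and epididymis, gave -4.76 ± 0.56 (adjusted p = 0.00083) without such a split. Under normexp, calls ended for Lcn2 (-5.41, 0.12), Insl3 (-6.62, 0.062), Jak3 (-6.34, 0.069) and Ptgds (-5.57, 0.058), given as interaction and adjusted p. Lcn2, Insl3, Jak3 and Ptgds lost the call without the 3 arrays that stood apart (adjusted p from 0.076 to 0.17).

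The split within Ex3bERKO thus recurred: replicates 2 and 3 were high and replicates 1 and 4 low for Hsd17b3, Lcn2, Insl3, Ptgds and Cstdc2. Replicates 2 and 3 lay on slides 1 and 4 and replicates 1 and 4 on slide 3, where control 2 and Ex3aERKO 1 stood at -0.51 and 6.74 for Insl3. The part of slide in this split was not tested. The interactions of Insl3 within slides 1 and 4, which leave out the low Ex3bERKO arrays, were -9.99 and -8.76.

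**Figure D4:**
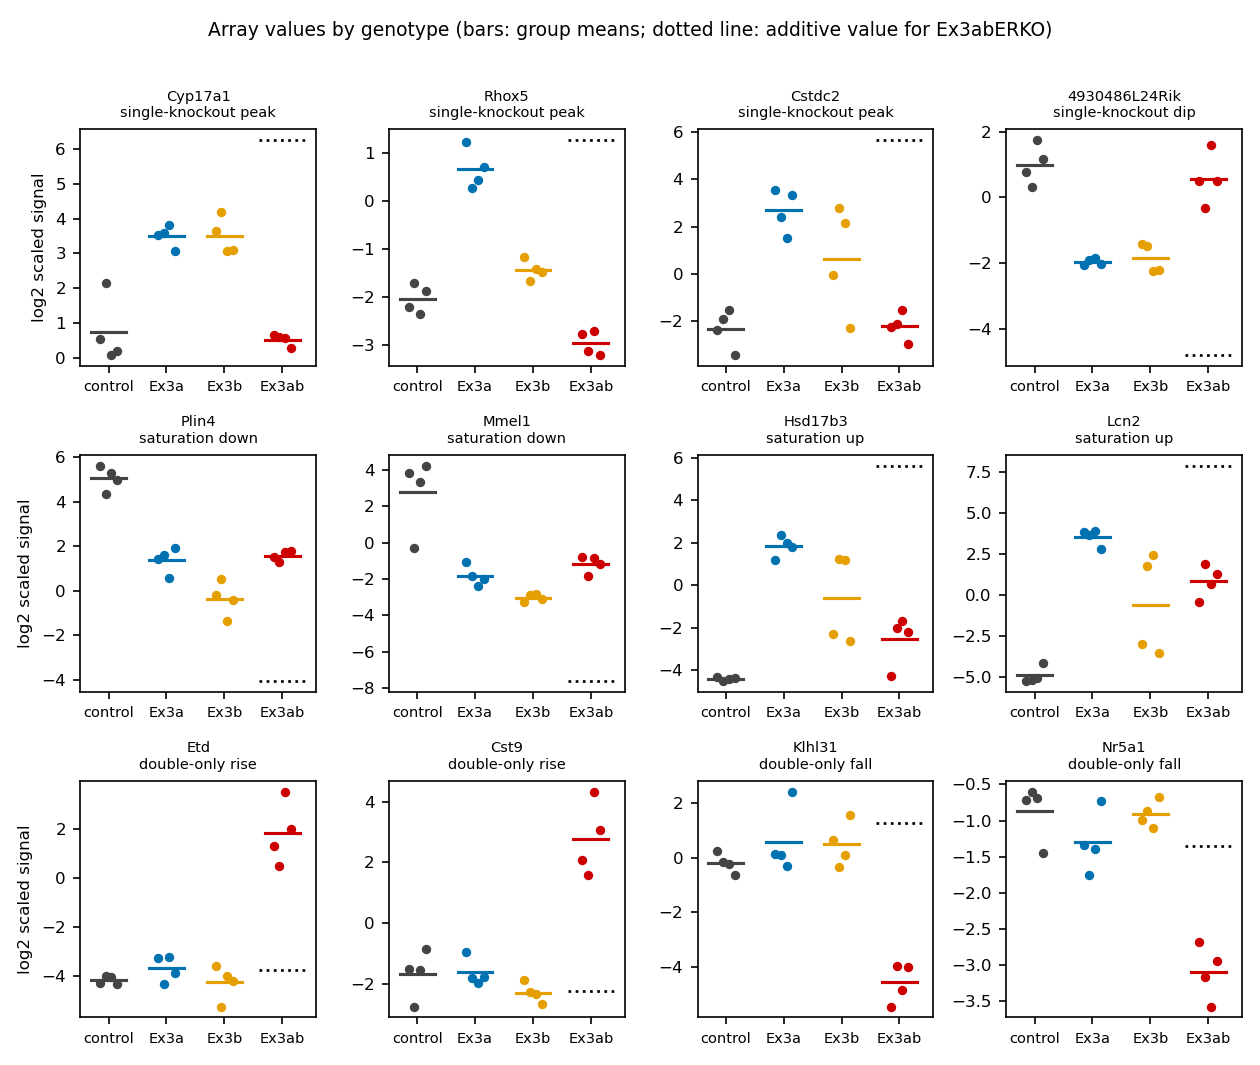
Levels (vertical axis, log2 scaled signal) of 12 genes in each group (horizontal axis; Ex3a, Ex3b and Ex3ab stand for the knockouts), titled by shape. Points are arrays, bars are group means and the dotted line is the additive value for the double knockout: for Cyp17a1 the double-knockout arrays sit at control level between 0.28 and 0.64, and for Etd they lie at 0.48 or higher while the other groups stay at or below -3.21.

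The double-only rises (83 features) included the testis genes Etd, Cst9 and Cstdc1. Etd, a transcript expressed in the male embryonic gonad, stood at -4.30, -4.02, -4.06 and -4.34 in control, -3.29, -4.34, -3.21 and -3.90 without ERα and -3.59, -5.26, -3.99 and -4.19 without ERβ. In Ex3abERKO it stood at 1.3, 0.48, 3.53 and 2.02, above every other array. Etd rose 64.5-fold in the double knockout (adjusted p = 1.1e-05), differed 1.41-fold and 1.06-fold in the single knockouts, and its interaction was 5.59 ± 0.73 (adjusted p = 0.0016). Cst9, the Sertoli cystatin also called testatin, stood at -1.52, -2.75, -1.55 and -0.85 in control, -0.94, -1.80, -1.98 and -1.77 without ERα and -1.88, -2.28, -2.34 and -2.65 without ERβ. Its double-knockout arrays at 2.06, 1.57, 4.32 and 3.06 did not overlap the rest, and its interaction was 5.0 ± 0.72 (adjusted p = 0.0023). Cstdc1 took the same shape, with -0.36, -1.14, 2.38 and 0.31 in the double knockout and at most -4.72 elsewhere (interaction 5.71 ± 0.79, adjusted p = 0.0019).

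The cystatin cluster therefore held both shapes. Cstdc1 (promoter window chr2:148781759-148782058, plus strand), Cst9 (chr2:148834897-148835196, plus strand) and Cstdc2 (chr2:148850885-148851184, minus strand; GRCm38.p6) lie close together, the first pair rising only in the double knockout and Cstdc2 only in the single knockouts. Of 11 cystatin genes measured, a family picked after its values were seen, 4 were called, 2 above additivity and 2 below, against 3.56% of all features. They were Cstdc1, Cst9, Cstdc2 and Cst6, a peak at -2.83.

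Dmrt1, a testis-determining transcription factor kept silent in the ovary, exceeded background clearly in Ex3abERKO, on each of its 4 arrays, and nowhere else. It was at least 2.51-fold higher in the double knockout than in control, at least 3.05-fold higher than in Ex3aERKO and at least 3.07-fold higher than in Ex3bERKO, these bounds taking a dim group at the lowest signal well above background. Its fitted interaction of 2.76 ± 0.57 (adjusted p = 0.017) depends on the floor and was 1.69 and not called with normexp. Sox9, the transcription factor that drives Sertoli fate, was not called. It stood at -2.84, -2.54, -2.26 and -2.12 in control, -1.27, -0.79, -0.92 and -2.37 without ERα, -1.66, -1.70, -1.84 and -2.83 without ERβ and 0.08, -0.05, 1.09 and 0.96 in Ex3abERKO. The double knockout lay above all other arrays, yet the interaction was 1.42 ± 0.53 with a 95% interval of 0.29 to 2.56 (adjusted p = 0.18). Its other 2 probes had interactions of 1.44 and -0.29, neither called.

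Cyp26a1, which degrades retinoic acid, rose only in the double knockout, with -2.34, -2.35, -1.23 and -1.92 against at most -3.67 on every other array (interaction 2.28 ± 0.44, adjusted p = 0.012). Aldh1a3, which makes retinoic acid, did so at 1.92 ± 0.46 (adjusted p = 0.034), while Aldh1a1, another such enzyme, fell only there (-1.62 ± 0.35, adjusted p = 0.02). The Wnt receptor Fzd1 (2.24 ± 0.43, adjusted p = 0.012) and the collagen gene Col1a1 (1.94 ± 0.50, adjusted p = 0.048) were further double-only rises. The 2 other Col1a1 probes, at 0.95 and 1.31, were not called. Igkv3-12, an antibody light-chain segment, had an interaction of 5.52 ± 1.21 (adjusted p = 0.023). On leaving out 1 array, the Igkv3-12 call ended without Ex3aERKO 1, the Aldh1a3 call ended without control 1 or 3, Ex3aERKO 1, Ex3bERKO 1, 3 or 4 or Ex3abERKO 1 or 2 and the Col1a1 call held only without Ex3bERKO 2 or Ex3abERKO 3 or 4. The lymphocyte genes summed to 39.8 to 111 in Ex3abERKO and to at most 21.6 elsewhere. None of the 23 measured was called, against 3.56% of all features, and their median interaction was 1.02. For these genes, with slide as a block the adjusted p missed the threshold for Aldh1a1 (0.076), Col1a1 (0.084) and Igkv3-12 (0.068). Normexp ended the calls of Cyp26a1 (2.57, 0.093) and Col1a1 (1.84, 0.09), with the interaction and adjusted p in parentheses. Leaving out the 3 arrays that stood apart ended the call of Aldh1a3, Aldh1a1, Fzd1, Col1a1 and Igkv3-12 (adjusted p from 0.053 to 0.19).

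Of 7 milk protein genes, picked after their values were seen, 3 were called, all as double-only rises, against 1.82% of all features called above additivity, and all 7 interactions were above 0, against 50.1% of all features. Csn1s1, Csn1s2b, Wap and Lalba were not called. A positive interaction is not a rise in each case: by means Lalba (0.83) lay below control in the double knockout and Wap (1.23) near it. Glycam1 stood between -1.61 and -0.25 in the double knockout and at most -5.06 elsewhere (interaction 4.46 ± 0.61, adjusted p = 0.0016), although it was well above background on only 2 control and 2 Ex3aERKO arrays. Csn1s2a and Csn2, caseins, had interactions of 4.84 ± 0.92 (adjusted p = 0.011) and 3.48 ± 0.75 (adjusted p = 0.021). In the same group, under normexp, calls ended for Csn2 (3.05, 0.092), given as interaction and adjusted p. Without the 3 arrays that stood apart, Csn1s2a and Csn2 lost the call (adjusted p from 0.075 to 0.12).

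Double-only falls (78 features) included transcription factors that both supporting cell types share. Nr5a1 (steroidogenic factor 1), which switches on steroid-making genes, stood at -0.72, -0.60, -0.69 and -1.45 in control, -1.33, -1.76, -1.40 and -0.73 without ERα and -1.0, -0.87, -1.11 and -0.68 without ERβ. In Ex3abERKO it stood at -2.69, -3.17, -3.58 and -2.94, below all other arrays, a 4.68-fold fall (adjusted p = 7.6e-05). The interaction was -1.75 ± 0.35 (adjusted p = 0.015). Gata4, its partner in the gonad, stood between -2.08 and -0.92 on the arrays of the other 3 groups and at -2.49, -2.93, -3.66 and -2.70 in Ex3abERKO (interaction -1.98 ± 0.37, adjusted p = 0.01). Nr5a2, a relative of Nr5a1 in granulosa and luteal cells, lay just outside the threshold at -1.99 ± 0.52 (adjusted p = 0.05), as did Aldh3b1 (1.12 ± 0.29), Col6a3 (1.39 ± 0.37) and Map3k5 (-1.44 ± 0.38). Another Nr5a1 probe was at -1.32 and another Col6a3 probe at -0.13, neither called. Here too, normexp ended the calls of Nr5a1 (-1.33, 0.062) and Gata4 (-1.41, 0.06), with the interaction and adjusted p in parentheses. Gata4 lost the call without the 3 arrays that stood apart (adjusted p = 0.061).

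Klhl31, a kelch-repeat gene known from muscle, showed the largest double-only fall, from 0.25, -0.16, -0.22 and -0.65 in control to -5.44, -3.96, -4.84 and -3.98 in Ex3abERKO. Its single knockouts stood at 0.13, 0.11, -0.31 and 2.41 and at 0.64, -0.35, 0.10 and 1.55, and the interaction was -5.82 ± 0.78 (adjusted p = 0.0016). Trib2, a pseudokinase, stood between -0.35 and 0.22 in Ex3abERKO and between 2.34 and 4.39 on all other arrays (interaction -3.71 ± 0.60, adjusted p = 0.004). Greb1, a textbook estrogen target in breast cells, was a double-only fall, by 1.18 (adjusted p = 0.028). It stood at 2.73, 3.17, 3.59 and 3.34 in control, 4.37, 3.00, 4.36 and 3.90 without ERα, 3.53, 3.02, 3.62 and 4.01 without ERβ and 2.76, 1.48, 2.40 and 1.46 in Ex3abERKO, which overlapped control. Its interaction was -2.22 ± 0.50 (adjusted p = 0.026), and the call ended on leaving out control 1, Ex3aERKO 1, Ex3aERKO 3, Ex3bERKO 3, Ex3bERKO 4, Ex3abERKO 2 or Ex3abERKO 4. One of its 2 RefSeq promoter windows, chr12:16800837-16801136 (minus strand, GRCm38.p6), holds a half-site. The bone morphogenetic protein gene Bmp2 (-2.02 ± 0.45), the gap junction gene Gja1 (-2.18 ± 0.50), Mpped2 (-3.71 ± 0.85) and Cela2a (-3.80 ± 0.65) also fell only in the double knockout. Cela2a was not well above background on any Ex3abERKO array. In fits without 1 array, the Bmp2 call ended without control 3 or Ex3aERKO 1, the Gja1 call ended without control 3 or 4, Ex3aERKO 1 or 4, Ex3bERKO 3 or 4 or Ex3abERKO 2 and the Mpped2 call ended without control 1, 3 or 4, Ex3bERKO 4 or Ex3abERKO 1. With slide as a block the adjusted p missed the threshold for Bmp2 (0.074), Gja1 (0.1) and Mpped2 (0.07). Under normexp, calls ended for Bmp2 (-1.18, 0.32), Mpped2 (-2.88, 0.1) and Cela2a (0.12, 0.94), given as interaction and adjusted p. Leaving out the 3 arrays that stood apart ended the call of Bmp2, Gja1 and Mpped2 (adjusted p from 0.06 to 0.1).

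Reversals, in which the double knockout fell below control while a single knockout lay above it, included the granulosa genes Fshr and Inhba. Fshr, the receptor for follicle-stimulating hormone, stood at -1.02, -0.08, -1.0 and -1.37 in control, 0.83, -0.37, -0.32 and 1.44 without ERα, -0.32, -0.68, -0.38 and -0.03 without ERβ and -1.53, -2.25, -2.25 and -1.65 in Ex3abERKO. Only the double knockout stood clear of all other arrays. Its interaction was -2.83 ± 0.54 (adjusted p = 0.011). Neither the difference of Ex3aERKO from control, 1.26 ± 0.38 (adjusted p = 0.057), nor that of the double, -1.06 ± 0.38 (adjusted p = 0.061), passed the test alone. Inhba, the inhibin and activin βA subunit, stood at 4.71, 6.09, 4.87 and 4.80 in control, 6.54, 5.61, 5.85 and 6.67 without ERα, 4.89, 5.24, 4.21 and 5.28 without ERβ and 3.90, 3.59, 3.28 and 1.95 in Ex3abERKO. It fell 3.83-fold in the double knockout (adjusted p = 0.0051), and its interaction was -2.78 ± 0.60 (adjusted p = 0.022), lost on leaving out control 4 (adjusted p = 0.05).

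Serpina5, a protease inhibitor of reproductive fluids, had the largest of the named downward reversals. It stood at 4.30, 2.48, 4.04 and 2.90 in control, 4.61, 4.49, 4.51 and 4.01 without ERα, 4.21, 5.10, 5.26 and 4.77 without ERβ and 0.36, 1.54, 2.37 and 1.40 in Ex3abERKO (interaction -4.39 ± 0.61, adjusted p = 0.0019). The vessel-remodelling factor Angpt2 gave -3.62 ± 0.74 (adjusted p = 0.016), with Ex3aERKO 4 at 5.23 against 2.14, 2.14 and 2.67. Dnah2, a ciliary dynein, and Fam162b gave -3.72 ± 0.88 and -3.58 ± 0.84. Upward reversals, 13 in all, included the pigment enzyme gene Dct (5.52 ± 1.42, adjusted p = 0.046), Thsd7b (5.22 ± 1.05), the carboxypeptidase-like Cpxm2 (4.57 ± 0.83) and Ott (4.55 ± 0.84). For Dnah2 and Thsd7b another probe had the opposite sign and was not called. When single arrays were left out, the Dnah2 call ended without control 1, 3 or 4, Ex3aERKO 1 or 3, Ex3bERKO 1 or 4 or Ex3abERKO 4, the Fam162b call ended without control 1, 3 or 4, Ex3aERKO 2 or 3, Ex3bERKO 1, 3 or 4 or Ex3abERKO 1 and the Dct call held only without control 2, 3 or 4 or Ex3aERKO 2. For these genes, with slide as a block the adjusted p missed the threshold for Dct (0.088). Normexp ended the calls of Dnah2 (-3.80, 0.053), Fam162b (-1.57, 0.43), Dct (4.33, 0.053) and Ott (3.39, 0.076), with the interaction and adjusted p in parentheses. Without the 3 arrays that stood apart, Angpt2, Dnah2, Fam162b and Thsd7b lost the call (adjusted p from 0.055 to 0.13).

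The noncoding RNAs Meg3, Rian and Mirg, read from the maternal copy of the imprinted Dlk1-Meg3 region on chromosome 12 and picked after their values were seen, lay together below additivity, Meg3 as a double-only fall and the other RNAs as reversals. Meg3 stood at 2.65, 2.89, 3.01 and 2.24 in control, 3.57, 2.85, 3.71 and 4.58 without ERα, 2.45, 1.93, 1.51 and 3.00 without ERβ and -0.28, 1.51, 1.04 and 0.85 in Ex3abERKO. The interactions were -2.42 ± 0.59 (adjusted p = 0.037) for Meg3, -2.80 ± 0.69 (adjusted p = 0.037) for Rian and -2.56 ± 0.58 (adjusted p = 0.025) for Mirg. The paternally expressed Dlk1 was at 2.71 ± 1.00 (adjusted p = 0.18) and Dio3 at 0.36 ± 0.51, neither called. On leaving out 1 array, the Meg3 call ended without control 1, 3 or 4, Ex3aERKO 1, 3 or 4, Ex3bERKO 1 or 4 or Ex3abERKO 1 or 4, the Rian call held only without control 2, Ex3aERKO 2, Ex3bERKO 3 or Ex3abERKO 3 and the Mirg call ended without control 1 or 3 or Ex3aERKO 1 or 3. In the same group, with slide as a block the adjusted p missed the threshold for Meg3 (0.12), Rian (0.089) and Mirg (0.057). Under normexp, calls ended for Rian (-1.13, 0.53) and Mirg (-1.41, 0.26), given as interaction and adjusted p. Meg3, Rian and Mirg lost the call without the 3 arrays that stood apart (adjusted p from 0.0503 to 0.07).

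In the smallest classes, 1 single knockout moved with the double. The defensin gene Defb36, from the Sertoli list, stood at -3.48, -2.96, -2.73 and -3.27 in control, -0.79, -2.09, -2.57 and -2.36 without ERα, -2.33, -2.51, -3.04 and -2.89 without ERβ and 1.38, 0.30, 2.33 and 2.10 in Ex3abERKO. All double-knockout arrays were above the rest, and the interaction was 3.06 ± 0.61 (adjusted p = 0.014). Cidea, a lipid-droplet protein, rose by 2.65 ± 0.58 in Ex3aERKO and by 6.41 ± 0.58 in Ex3abERKO, for an interaction of 3.5 ± 0.82 (adjusted p = 0.03). The X-linked transcript 4933402E13Rik was not above background on any control array and was at least 155-fold higher in the double knockout than in control. Defb7, Defb8 and the odorant-binding gene Obp2a rose in Ex3aERKO but less so in the double, with interactions of -4.86 ± 1.04, -4.54 ± 1.08 and -4.40 ± 0.84. Defb7 and Obp2a were not above background in control, so Ex3aERKO was at least 19.6-fold and at least 16.7-fold higher. In fits without 1 array, the Cidea call ended without control 1, 3 or 4, Ex3aERKO 1 or 4, Ex3bERKO 3 or 4 or Ex3abERKO 4 and the Defb8 call ended without control 2 or 4, Ex3aERKO 1, 2 or 4, Ex3bERKO 2 or 3 or Ex3abERKO 1, 2 or 4. Here too, with slide as a block the adjusted p missed the threshold for Cidea (0.069). Normexp ended the calls of Defb7 (-1.09, 0.54), Defb8 (-3.02, 0.12) and Obp2a (-0.90, 0.58), with the interaction and adjusted p in parentheses. Leaving out the 3 arrays that stood apart ended the call of Defb7 and Defb8 (adjusted p from 0.12 to 0.17).

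Bpifb5, of a family of secreted lipid-binding proteins, was 1 of 3 features with opposed single knockouts. It stood at 2.11, 1.94, 1.3 and 1.3 in control, -0.27, -0.48, 0.37 and -0.57 without ERα, 2.99, 3.00, 3.52 and 2.51 without ERβ and -4.17, -2.71, -4.08 and -2.83 in Ex3abERKO, with no overlap between any groups. It fell by 1.90 in Ex3aERKO (adjusted p = 0.0048) and by 5.11 in Ex3abERKO (adjusted p = 2.8e-06), and its Ex3bERKO mean lay 1.34 ± 0.36 above control (adjusted p = 0.11). The interaction came to -4.55 ± 0.51 (adjusted p = 0.00055). Its neighbour in the family, Bpifb4, gave -4.39 ± 0.83 (adjusted p = 0.012), and the pigment gene Oca2 -4.60 ± 0.68 (adjusted p = 0.0025). Other features in which 1 single knockout moved with the double were Slc9a3, a sodium-proton exchanger (-2.54 ± 0.53), Miox (-1.29 ± 0.30), Ccdc3 (-3.88 ± 0.92) and Acsm3 (-2.75 ± 0.68) below additivity and Vsig1 (4.60 ± 1.00), the protocadherin gene Pcdh17 (2.01 ± 0.30), Abca7 (1.53 ± 0.34), the endothelial adhesion gene Icam2 (1.53 ± 0.26) and Myct1 (1.34 ± 0.33) above it. For Slc9a3 no Ex3abERKO array was well above background, and control was at least 6.87-fold higher. Abca7 had another probe of opposite sign, not called. The 2 other Pcdh17 probes were at 0.06 and 1.88, with 1 called. When single arrays were left out, the Miox call ended without control 1, 3 or 4, Ex3bERKO 3 or 4 or Ex3abERKO 1, 2 or 4, the Ccdc3 call ended without control 3 or 4, Ex3aERKO 1 or 4, Ex3bERKO 1 or Ex3abERKO 1 or 4, the Acsm3 call held only without Ex3aERKO 4, Ex3bERKO 1 or 4 or Ex3abERKO 3, the Abca7 call ended without control 1 or 4, Ex3aERKO 1 or Ex3bERKO 3 and the Myct1 call ended without control 1 or 4, Ex3aERKO 2, 3 or 4, Ex3bERKO 1 or 3 or Ex3abERKO 1 or 2. With slide as a block the adjusted p missed the threshold for Miox (0.093), Ccdc3 (0.088) and Abca7 (0.068). Under normexp, calls ended for Bpifb4 (-2.31, 0.16), Oca2 (-2.55, 0.054), Slc9a3 (0.35, 0.74), Ccdc3 (-2.64, 0.14), Acsm3 (-1.97, 0.26), Vsig1 (3.96, 0.052) and Abca7 (1.41, 0.068), given as interaction and adjusted p. Without the 3 arrays that stood apart, Slc9a3, Miox, Ccdc3, Acsm3, Abca7 and Myct1 lost the call (adjusted p from 0.067 to 0.19).

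Among the 269 features near control in every knockout, interactions were small, between 0.67 and 2.77 in size with a median of 1.28, and 158 of them lay above additivity. Named members were Egf (2.18 ± 0.39), the cadherin Fat4 (2.32 ± 0.42), Tnfrsf19 (2.08 ± 0.44) and Fam78b (2.28 ± 0.36) above additivity, and Sybu (-2.58 ± 0.47), Igsf21 (-2.45 ± 0.52) and Pipox (-2.34 ± 0.47) below. For Hsf3, at -2.77 ± 0.66, the double knockout was not above background on any array, and the Hsf3 call held only without control 1, Ex3aERKO 2 or 3, Ex3bERKO 1 or Ex3abERKO 3. For these genes, with slide as a block the adjusted p missed the threshold for Pipox (0.054) and Hsf3 (0.058). Normexp ended the calls of Egf (2.08, 0.062), Tnfrsf19 (1.95, 0.054), Fam78b (2.22, 0.054), Igsf21 (-1.46, 0.29), Pipox (-1.85, 0.083) and Hsf3 (0.55, 0.71), with the interaction and adjusted p in parentheses. Fat4, Tnfrsf19, Sybu, Igsf21, Pipox and Hsf3 lost the call without the 3 arrays that stood apart (adjusted p from 0.062 to 0.14).

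The gene lists differed in how far their members departed from additivity. Over all features 3.56% were called, 1.82% above additivity and 1.74% below, and 50.1% had an interaction above 0. In the granulosa list 3 of 20 measured genes were called, all below additivity (Fshr, Inhba and Gja1), with a median interaction of -1.55 and 17 of 20 values below 0. In the list shared by both supporting cell types 3 of 14 were called below (Gata4, Nr5a1 and Inhba). The lists overlap, and Inhba counts in the granulosa, shared and luteal lists, so these counts are not separate. In the Sertoli list 4 of 21 were called above (Etd, Cst9, Defb36 and Dmrt1) and 3 below (Rhox5, Ptgds and Eppin), and the median was -0.05. Dmrt1 passed the background filter only through the Ex3abERKO arrays, where it was high. In the theca and Leydig list 3 of 16 were called, all below (Cyp17a1, Hsd17b3 and Insl3). The summed signal of the granulosa genes was between 149 and 263 in control, between 176 and 415 without ERα, between 139 and 215 without ERβ and between 57.3 and 126 in Ex3abERKO. The list members were chosen with earlier results of these data known.

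Several key genes were not called, which does not show that they were additive. For the ovary-maintaining factor Foxl2 the interaction was -0.08 with a 95% interval of -0.54 to 0.37, a narrow range. For anti-Müllerian hormone (Amh) it was -0.49 (-1.85 to 0.86), for the side-chain cleavage enzyme Cyp11a1 -0.49 (-1.45 to 0.48) and for the cholesterol transporter Star 1.09 (-0.26 to 2.43). Aromatase (Cyp19a1) reached -3.01 (-4.82 to -1.20; adjusted p = 0.068). A second, dimmer Cyp19a1 probe was called at -3.59 when each probe was tested alone, and the gene was called without control 2 (adjusted p = 0.0071), with array weights and with a trended, robust fit. The luteinizing hormone receptor Lhcgr reached -2.38 (-4.10 to -0.65; adjusted p = 0.14), so the unadjusted intervals of Cyp19a1 and Lhcgr left out 0. In the oocyte list none of 21 measured genes was called, which does not set the list apart from the 3.56% called over all features. The list's median interaction was 0.00 and 11 values lay above 0, against 50.1% of all features. The zona protein gene Zp3 and the oocyte growth factor gene Bmp15 had interactions of -0.10 (-1.5 to 1.29) and 0.03 (-1.39 to 1.44), although Zp3 means ran from -1.39 in Ex3aERKO to 2.45 in Ex3bERKO.

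**Figure D5:**
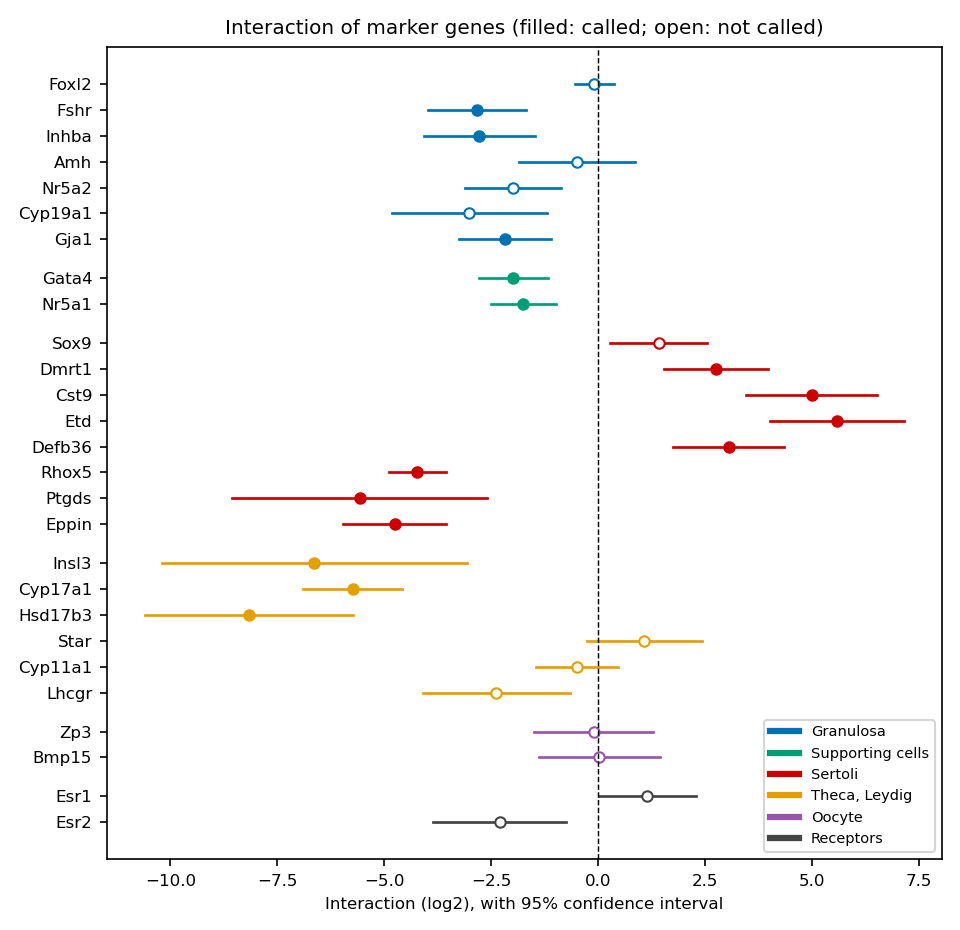
Interaction (horizontal axis, log2) of marker genes (vertical axis), grouped by cell type, with 95% confidence intervals from the fit; filled points were called. Called granulosa, theca and Leydig genes lie below 0, while called Sertoli genes lie on both sides, from -5.57 for Ptgds to 5.59 for Etd.

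No gene of the oocyte, hedgehog, IGF, cell cycle, macrophage, lymphocyte, MHC class II, endothelium, smooth muscle, surface epithelium, oviduct, erythroid, liver, immediate early or oxidative phosphorylation lists was called. Since 3.56% of all features were called, lists this short can hold no call without differing from that share. Medians close to 0 included those of the IGF (0.06) and oxidative phosphorylation (0.07) lists. Of all features, 50.1% had an interaction above 0. The surface epithelium list had a median of -0.89, with 13 of 14 values below 0. The interferon list had a median of 1.00 with all 22 values above 0 and 1 call (Oasl2), and the Wnt list a median of 0.81 with 2 of 24 called. Cholesterol synthesis, despite the call of Hsd17b7, had a median of 0.12 over 25 genes. Over all features 1.82% were called above additivity. In the lipid droplet list 3 of 20 were called, all above (Plin4, Plin5 and Cidea), and in the stroma list 3 of 24, all above (Col1a1, Pdgfrb and Sparc, of which the Sparc call held only without control 2, Ex3bERKO 2 or Ex3abERKO 2 or 4). Another Sparc probe, at 1.04, was not called.

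The receptor genes themselves were read by probes whose position against the deleted part is not given in the sources used here, so they do not check the labels. Esr1 stood at -0.32, -0.17, -0.12 and 0.20 in control, -2.18, -2.19, -1.89 and -3.66 without ERα, 0.34, -0.57, -1.06 and -0.73 without ERβ and -1.86, -1.04, -2.11 and -1.93 in Ex3abERKO. Its interaction of 1.15 (0.01 to 2.28, adjusted p = 0.3) was not called. Another Esr1 probe was at -0.21, also not called. Esr2 stood at -0.22, 0.34, -0.33 and -0.23 in control, -0.32, -1.07, -1.01 and 1.58 without ERα, 0.04, -0.58, 1.00 and 0.84 without ERβ and -1.62, -2.54, -1.61 and -2.53 in Ex3abERKO. Only the double knockout stood below the rest, and the interaction was -2.30 (-3.85 to -0.75; adjusted p = 0.11). The Esr2 signal of the Ex3bERKO arrays, from -0.58 to 1.00, spanned the control range.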

How the data were processed

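Total RNA from whole ovaries was hybridised to 16 single-colour Agilent arrays, 4 per genotype by title, on 4 slides. The values used were the processed spot intensities, background-corrected by the authors with Agilent Feature Extraction 9.5 per the submitters' processing notes and the file headers. The deposited series table held the same intensities for all 41174 probes (largest relative difference 5.0e-06, tolerance 0.0001), not normalized between arrays, with column medians from 149.5 to 252.7.

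From the scanner files, control spots and outlier-flagged spots were left out, spots of a probe averaged, each array divided by its 75th percentile (1211 to 1806 intensity units), values floored at a common -8.88 and log2 taken. Probes well above background on at least 4 of 16 arrays were kept (36214) and each gene was represented by its brightest kept probe, the one with the highest mean over all arrays, giving 24430 features, of which 18297 had a symbol, partly through RefSeq accessions. A 4-group model was fitted with limma 3.58.1 in R 4.3.3 (12 residual and 2.51 prior degrees of freedom) and p-values were adjusted by Benjamini-Hochberg over all features, with alpha 0.05 and intervals of 95%. The fit was tested on simulated data.

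Genes named were the 4 called features of largest interaction in each shape with the same sign on slides 1 and 4, up to 3 called members per list, a set of 21 genes whatever their values (Pgr was not among the features) and 4 just outside the threshold. Rhox5, Eppin, Parm1, the other kallikreins and the families picked after their values were seen lie outside this rule, and so do genes given only as members of a list. The members and lists were chosen with earlier results of these data known. Motifs were searched on both strands of RefSeq promoter windows (GRCm38.p6), where the half-site also lies inside the longer motif. Alternatives covered scaling, background, filters, slide, replicate number, weights and left-out arrays. Python 3.11.15 was used for tables and figures.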

Additional observations from a re-analysis of the deposited data

Results flagged for a closer look

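The effect of ERβ loss differed with and without ERα for 869 features by the interaction term of limma, the result the text describes.

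For 32 genes described in full, each array's level was set against the other 3 arrays of its group, over 128 groups. The end value stood apart (by Dixon's 95% limit on the gap to the next array over the whole range) in 13, where chance would give about 5%. Control 2 stood apart most often among the controls: Plin5 at 0.83 (others 3.54 to 3.76), Runx2 at 1.33 (2.77 to 2.83), Trib2 at 3.83 (2.72 to 2.85), Inhba at 6.09 (4.71 to 4.87) and Esr2 at 0.34 (-0.33 to -0.22). Plin5 and Runx2, which saturated downward, were low on it, and the granulosa gene Inhba was high. Control 4 stood apart for Nr5a1 at -1.45 (-0.72 to -0.60).

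Ex3aERKO 4 stood apart in 6 genes: Mia at 3.69 (1.61 to 1.91), Klhl31 at 2.41 (-0.31 to 0.13), Klk1b26 at -0.64 (0.31 to 0.49), Insl3 at 6.49 (6.72 to 6.74), Ptgds at 5.02 (5.57 to 5.67) and Esr1 at -3.66 (-2.19 to -1.89). It was also the Ex3aERKO array with the highest sum of granulosa genes (415). Ex3bERKO 4 stood apart for Sox9 at -2.83 (-1.84 to -1.66). Mia, Runx2, Trib2, Klhl31, Nr5a1 and Plin5 kept their calls on leaving out any single array, whereas Klk1b26, Insl3, Ptgds and Inhba did not.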

How the results depend on the processing

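All 869 called interactions kept their sign under every scaling, slide, replicate, weighting and left-out-array alternative, and under the filters for those still tested. Because these fits reuse the arrays that picked the 869, a kept sign was nearly fixed in advance and is not separate support. With normexp background correction, which moved the median of all features to 0.36, 821 of 869 kept their sign. The count was 339 with normexp (212 higher and 127 lower, against 445 and 424), 6 with slide as a block and only the slides holding every group, which leaves 8 arrays, 1708 with array weights, 252 without the arrays Ex3aERKO 2, Ex3abERKO 2 and control 4, and 506 to 1328 on leaving out 1 array. Apart from testing each of 36214 probes alone (1157 called), the counts under other alternatives ran from 628 to 1004. Same-numbered arrays did not deviate together (median r -0.07 over 24 pairs, 7 above 0.1, 4 of 16 arrays correlating best with their own number), so the numbers do not pair the samples, whereas arrays of 1 slide deviated together (median r 0.28 over 22 pairs, 18 above 0.1); with the replicate block 696 were called, 644 of them among the 869. Peaks and dips numbered 260, and 393 with array weights, 168 with a difference of 1.5 log2 units counted as moved, 113 with normexp and 86 without the 3 arrays. Double-only features numbered 161, and 327 with array weights, 284 without Ex3abERKO 3, 258 when the pairwise adjusted p decided, 67 with normexp and 64 without the 3 arrays. Saturated features numbered 116, and 174 with array weights, 212 at 0.5, 71 at 1.5, 61 with normexp and 40 without the 3 arrays. Of the 100 named genes, some of which were not called in the main fit, 19 lost their call with slide as a block and 43 without the 3 arrays. With normexp 37 lost the call with their sign kept. The sign turned there for Cela2a (0.12), Hsf3 (0.55) and Slc9a3 (0.35), which also lost the call. It also turned for Foxl2 (0.28), which was not called in the main fit. Among uncalled genes, Foxl2 was at 0.091 with slide as a block, 0.012 on the full slides and -0.16 to 0.022 on leaving out 1 array; Zp3 at 0.14, 0.89 and -0.57 to 0.21; and Bmp15 at -0.41 with array weights and -0.43 to 0.28 on leaving out 1 array. The cause of these changes was not tested, except that fewer arrays enter the fits that leave arrays out. Probes near background limit the size of an interaction, since the floor sets their level.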
